A study of Homo sapiens with 24 samples.

Results

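The AP-1 transcription factor genes were followed in A549 cells, an established line derived from a human lung adenocarcinoma, over the first 11 hours of exposure to dexamethasone (dex). The group was set by gene symbol and holds 10 genes, the FOS genes *FOS*, *FOSB*, *FOSL1* and *FOSL2*, the JUN genes *JUN*, *JUNB* and *JUND*, and *BATF3*, *MAFF* and *MAFK*, of 33127 genes with at least 1 counted transcript. Poly-A RNA was sequenced after 1, 3, 5, 7, 9 or 11 hours of exposure to 100 nM dex dissolved in ethanol or to the same volume of ethanol alone (EtOH, 0.02% of the medium). Each treatment and time point had 2 libraries, labelled as biological replicates, which gave 12 groups and 24 libraries, and all groups shared the same medium and serum. The treatment text of the labels names 1 hour for every library while their duration field runs from 1 to 11 hours, and the duration was used. Cells of only 1 line were studied, and the p-values measure the spread between these libraries.

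AP-1 is a dimer of basic leucine zipper (bZIP) proteins. JUN proteins pair with each other or with FOS proteins and bind the TRE, a short palindrome first found as the phorbol ester response element, while FOS proteins do not form stable dimers with one another. FOS, FOSB, JUN and JUNB are classic immediate early genes of serum and growth factor responses. BATF3 and the small MAF proteins MAFF and MAFK lack a transactivation domain of their own and act through their partners. The glucocorticoid receptor, which dex activates, is known to bind AP-1 proteins and to restrain AP-1 driven genes in airway epithelium.

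The stretches before the start sites of *FOS* and *JUND* are shown because transcripts of these genes moved in opposite directions with dex while both stretches hold letters of the CRE, the element bound by CREB and ATF proteins and by some AP-1 dimers. Windows from *JUN* and *FOSL2* are shown because they hold forms of the TRE. All are from RefSeq on GRCh38.p14, in the direction of transcription, and were found for 7 of the 10 genes, with *FOSL1*, *BATF3* and *MAFK* missing. Capitals mark the motif letters. The regions are chr14:75278578-75278773 on the plus strand for *FOS*, chr19:18281623-18281872 on the minus strand for *JUND*, chr1:58784096-58784125 on the minus strand for *JUN* and chr2:28392851-28392880 on the plus strand for *FOSL2*.
FOS: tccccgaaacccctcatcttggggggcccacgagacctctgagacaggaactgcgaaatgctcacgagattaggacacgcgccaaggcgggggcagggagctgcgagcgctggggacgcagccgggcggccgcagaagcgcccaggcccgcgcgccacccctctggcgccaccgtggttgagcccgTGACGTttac
JUND: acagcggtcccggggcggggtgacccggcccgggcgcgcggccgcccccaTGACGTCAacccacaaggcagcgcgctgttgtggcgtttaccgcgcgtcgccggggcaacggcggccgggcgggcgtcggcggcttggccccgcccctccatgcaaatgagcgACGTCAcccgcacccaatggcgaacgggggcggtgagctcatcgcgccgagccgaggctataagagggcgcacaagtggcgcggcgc
JUN: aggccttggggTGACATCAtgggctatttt
FOSL2: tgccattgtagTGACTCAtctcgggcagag

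Motifs were searched on both strands of the 300 bases from 250 before to 50 after each RefSeq start. TGACGT, the first 6 letters of the CRE, was found in 7.97% of 34943 such windows and in those of 5 members, *FOS*, *FOSB*, *FOSL2*, *JUND* and *MAFF*. Shorter stretches of the CRE were not searched. The full CRE TGACGTCA, which contains TGACGT on both strands, was found in 1.84% of all windows and in *JUND* and *MAFF*. TGACTCA, the TRE, was found in 4.96% of windows and, among the members, in *FOSL2*. TGACATCA, the variant known from the *JUN* promoter, was found in 2.61% and, among the members, in *JUN*. The TGACGT of *FOS* lay from -64 to -59 relative to the RefSeq start, the *JUN* variant from -67 to -60 and the full CRE of *JUND* from -200 to -193. For *FOS*, *JUN* and *FOSL2* the RefSeq start lies downstream of the GENCODE start of the gene given with its values, and the printed *FOS* stretch ends just before the GENCODE start. The window of *JUNB* held none of these motifs, which says only that these letters are not in that window.

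The libraries held between 6708864 and 13748598 counts (median 10109393.5), and the 10 genes took between 0.0307% and 0.0470% of the counts assigned to genes. After a filter on low counts, 15337 genes were tested, all 10 members among them. The biological coefficient of variation ran from 6.49% at 7 hours to 12.7% at 11 hours. *TSC22D3* and *PER1*, direct glucocorticoid targets, rose at every time point, and *FKBP5* rose from 3 hours on, with a log2 fold change of 3.38 at 3 hours. The epithelial keratins *KRT8* and *KRT18* were among the abundant genes (at least 1523 normalized CPM in every library) and rose with dex from 3 hours on. The other epithelial markers moved in both directions, with *CDH1* higher at 5 and 7 hours, *EPCAM* lower at 5, 7 and 9 hours (log2 fold changes of -0.84, -0.95 and -0.70) and *KRT19* lower at 5 and 9 hours (-0.56 and -1.02). The part of these changes in the values of the AP-1 genes was not tested. Of 8 markers of leukocytes, endothelial cells and fibroblasts in the table, *CD3E* had 0 counts in every library and *PTPRC*, *VWF*, *DCN*, *PDGFRB* and *CDH5* had at most 12, while *CD14* had 7 to 36 and *COL1A1* 45 to 268. *COL1A1* rose by 0.57 on the log2 scale at 3 hours and fell by 1.20, 1.03 and 1.35 at 5, 7 and 9 hours, and its part in the values of the AP-1 genes was not tested.

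Levels were compared between genes per length, as transcript levels scaled to a fixed sum per library (TPM) computed here from the counts and the transcript lengths of a later GENCODE release than the one the authors mapped to. In the 12 EtOH libraries *FOSL2* stood highest, at 54.3 ± 2.90 TPM (mean ± SD, n = 12 libraries over the 6 time points). *JUNB* followed with 38.5 ± 6.08 TPM and *MAFK* with 33.3 ± 4.29 TPM, and the ranges of these 2 genes overlapped. The *MAFK* level includes a transcript annotated for nonsense-mediated decay, which held 29.6% of the counts of that gene over the 24 libraries. *JUND* at 16.5 ± 2.73, *JUN* at 15.3 ± 1.87 and *FOSL1* at 13.1 ± 2.07 TPM also overlapped in range. *FOS* at 5.53 ± 1.00 and *BATF3* at 4.73 ± 1.71 TPM formed the next overlapping pair. *MAFF* and *FOSB* were lowest, at 1.09 ± 0.355 and 0.696 ± 0.249 TPM. Between these 5 tiers the ranges did not overlap. In the overall test of the EtOH time course 0 members passed (edgeR, lowest adjusted p = 0.168, for *BATF3*), against 3.3% of all genes. Of the members, 2 had an unadjusted p below 0.05, and DESeq2 called 0 with 1 below 0.05 unadjusted.

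Dex was tested against EtOH at each time point, 2 libraries against 2, with the quasi-likelihood F-test of edgeR. The p-values were adjusted over all tested genes by the method of Benjamini and Hochberg, and an adjusted p of at most 0.1 was called. The members were chosen with earlier results of these data known, so their counts beside the shares of all genes are descriptions. The members split in both directions. *FOS*, *FOSL2* and *JUNB* were higher with dex from 3 to 11 hours, *JUND* was lower over the same times, *MAFK* was lower at all 6 time points and *FOSL1* at the first 5. *JUN* was called lower at 1 and 3 hours and not later. At 1 hour, 3 of 10 members were called, all lower, where 1.06% of all genes were called in either direction and 0.417% were lower. At 3 hours, 9 were called, 4 higher and 5 lower, where 14.1% of all genes were called, 8.42% higher and 5.65% lower.
At 5 hours, 6 members were called, 3 in each direction, against 25% of all genes (12.4% higher, 12.6% lower). The count was again 3 higher and 3 lower at 7 hours, where 28.2% of genes were called (14.7% higher, 13.5% lower), and at 9 hours, where 19.8% were called (10.8% higher, 8.96% lower). At 11 hours 3 members were higher and 2 lower, against 9.12% of genes (5.8% higher, 3.33% lower). At 3 hours the dex and EtOH libraries did not overlap for any of the 10 members, which was true of 51.7% of all genes, and at 1 hour they did not overlap for 5 members, against 34.6%. They stood apart for 8 members at 5 hours (55.7% of all genes), 8 at 7 hours (58.7%), 7 at 9 hours (55.1%) and 6 at 11 hours (45.8%). Of the members, 7 were called at 2 or more consecutive time points, against 20.8% of all genes, and each of the 7 was called in the same direction throughout. The median log2 fold change of the members was -0.31, -0.02, -0.11, -0.30, -0.40 and 0.09 at the 6 time points, beside medians between -0.01 and 0.01 over all genes.

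**Figure D1:**
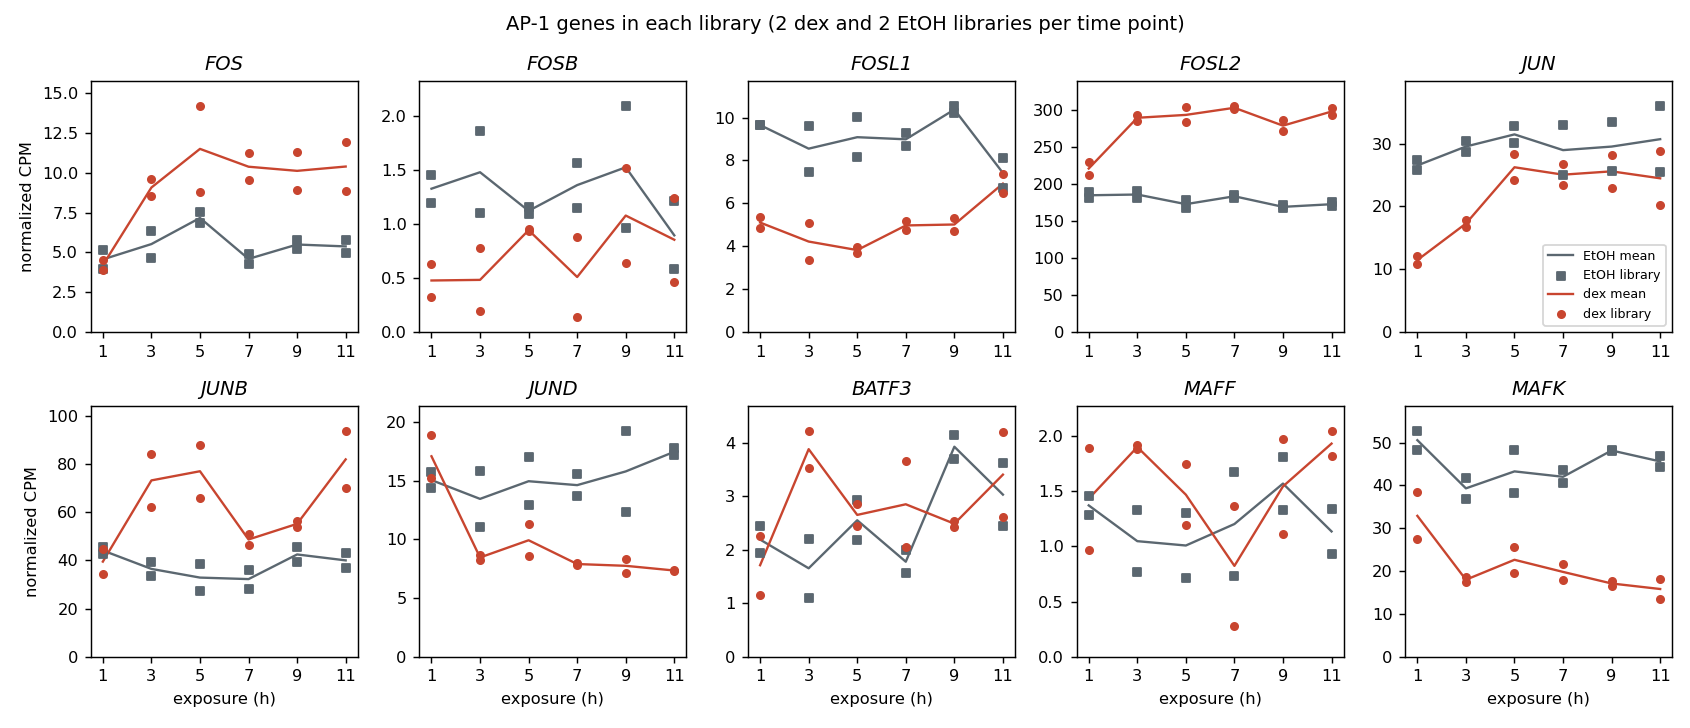
Normalized CPM (counts scaled to library size) of the 10 AP-1 genes against hours of exposure, 1 panel per gene, each point 1 library and each line the mean of the 2 libraries of a group, with dex and EtOH in separate colours. The dex points of *FOSL2* lie above the EtOH points at every time point and those of *MAFK* below them, while the libraries of *MAFF* overlap at 4 of 6 time points.

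*FOS* (ENSG00000170345.9, chromosome 14 of GRCh38, 75278774 to 75282230, plus strand), the founding immediate early member of its family, rose from 3 hours on. Its EtOH libraries had 5.15 and 3.98 normalized CPM at 1 hour, 6.38 and 4.68 at 3 hours, 7.51 and 6.82 at 5 hours, 4.29 and 4.90 at 7 hours, 5.79 and 5.21 at 9 hours, and 5.77 and 4.99 at 11 hours. The dex libraries had 3.89 and 4.53 at 1 hour, 9.61 and 8.54 at 3 hours, 14.2 and 8.82 at 5 hours, 11.2 and 9.55 at 7 hours, 8.95 and 11.3 at 9 hours, and 11.9 and 8.88 at 11 hours. The groups overlapped at 1 hour and stood apart from 3 hours on, with every dex library higher. The log2 fold change was -0.13 ± 0.28 at 1 hour (standard error), where no change was called. It was 0.73 ± 0.22 at 3 hours (edgeR adjusted p = 0.0331), 0.69 ± 0.22 at 5 hours (adjusted p = 0.0206), 1.19 ± 0.21 at 7 hours (adjusted p = 4.88e-05), 0.92 ± 0.22 at 9 hours (adjusted p = 0.0138) and 0.97 ± 0.25 at 11 hours (adjusted p = 0.0362). Only at 7 hours did the call outlast every left-out library. It ended without dex replicate 1 or EtOH replicate 2 at 3 hours (log2 fold change 0.65 and 0.51) and at 5 hours (0.30 and 0.62), without dex replicate 2 at 9 hours (0.72), and without either EtOH library at 11 hours (1.07 and 0.86). With DESeq2 the adjusted p was 0.236 at 3 hours, 0.163 at 5 hours and 0.115 at 11 hours. The most counted *FOS* transcript alone was not called at 3 and 11 hours (edgeR adjusted p = 0.123 and 0.256).

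*FOSB* (ENSG00000125740.13, chromosome 19, 45467995 to 45475179, plus strand), the other immediate early FOS gene, was sparse, with 1 to 22 counts in a library. It shares its locus with *ERCC1* on the opposite strand, and whether counting used the strand is not stated. At 3 hours the EtOH libraries had 1.10 and 1.85 normalized CPM and the dex libraries 0.774 and 0.192, and the log2 fold change of -1.67 ± 0.59 was called (edgeR adjusted p = 0.0734). That call ended without dex replicate 2 (-0.96) or EtOH replicate 2 (-1.22). DESeq2 did not call it and gave *FOSB* no unadjusted p below 0.05 at any time point, while edgeR gave one at 3 time points. At times other than 3 hours *FOSB* was not called. Its log2 fold change was -1.38 ± 0.59 at 1 hour and -1.22 ± 0.60 at 7 hours (edgeR unadjusted p = 0.0303 and 0.0478). It was -0.25 ± 0.52, -0.65 ± 0.55 and -0.03 ± 0.64 at 5, 9 and 11 hours. The dex libraries lay below both EtOH libraries at 1, 5 and 7 hours, and the low counts limit what could be seen.

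*FOSL1* (ENSG00000175592.8, chromosome 11, 65892049 to 65900573, minus strand) encodes FRA-1, a FOS protein without a strong transactivation domain that is known for its part in the growth of epithelial tumours. With EtOH it had 9.65 normalized CPM in both libraries at 1 hour, 7.47 and 9.63 at 3 hours, 10.0 and 8.15 at 5 hours, 8.68 and 9.29 at 7 hours, 10.5 and 10.2 at 9 hours, and 6.71 and 8.13 at 11 hours. With dex it had 5.36 and 4.85 at 1 hour, 5.08 and 3.36 at 3 hours, 3.95 and 3.69 at 5 hours, 5.17 and 4.77 at 7 hours, 4.70 and 5.33 at 9 hours, and 7.35 and 6.49 at 11 hours. Each dex library was below both EtOH libraries up to 9 hours, and the groups overlapped at 11 hours. The log2 fold change was -0.91 ± 0.23 at 1 hour (edgeR adjusted p = 0.0818), -1.04 ± 0.25 at 3 hours (adjusted p = 0.00504), -1.24 ± 0.25 at 5 hours (adjusted p = 0.000135), -0.84 ± 0.22 at 7 hours (adjusted p = 0.00368) and -1.01 ± 0.22 at 9 hours (adjusted p = 0.00637). At 11 hours it was -0.09 ± 0.24 and not called. The change from 5 to 11 hours in the dex effect was itself 1.13 ± 0.30 (one edgeR fit over 24 libraries, adjusted p = 0.0554). The call at 1 hour ended without either EtOH library (-0.91 and -0.92) and with DESeq2 (adjusted p = 0.487). That at 9 hours ended without dex replicate 1 (-0.94). The most counted *FOSL1* transcript alone was not called at 1, 7 and 9 hours (edgeR adjusted p = 0.842, 0.149 and 0.249).

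*FOSL2* (ENSG00000075426.11, chromosome 2, 28392448 to 28417312, plus strand) encodes FRA-2 and was the most highly counted of the 10 genes. Its EtOH libraries had 181 and 188 normalized CPM at 1 hour, 191 and 181 at 3 hours, 167 and 178 at 5 hours, 186 and 181 at 7 hours, 171 and 167 at 9 hours, and 170 and 176 at 11 hours. The dex libraries had 230 and 211 at 1 hour, 285 and 293 at 3 hours, 283 and 303 at 5 hours, 300.4 and 305 at 7 hours, 286 and 271 at 9 hours, and 293 and 302 at 11 hours. The groups did not overlap at any time point. The log2 fold change was 0.25 ± 0.11 at 1 hour (edgeR adjusted p = 0.646, not called), 0.64 ± 0.09 at 3 hours (adjusted p = 1.65e-05), 0.76 ± 0.10 at 5 hours (adjusted p = 7.76e-08), 0.73 ± 0.07 at 7 hours (adjusted p = 1.33e-09), 0.74 ± 0.10 at 9 hours (adjusted p = 0.000333) and 0.80 ± 0.13 at 11 hours (adjusted p = 0.00149). From 3 hours on the fold change thus lay between 1.56 and 1.75. The dex effect was larger at 3 hours than at 1 hour by 0.38 ± 0.12 (adjusted p = 0.0789), at 5 hours by 0.50 ± 0.12 (adjusted p = 0.00492) and at 11 hours by 0.53 ± 0.12 (adjusted p = 0.00500). The 2 most counted of its transcripts each passed at the 5 times from 3 hours on. An antisense gene, *FLJ31356*, and an intronic transcript, *AC104695.3*, overlap *FOSL2*.

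*JUN* (ENSG00000177606.6, chromosome 1, 58780788 to 58784327, minus strand), the founding AP-1 subunit, fell at 1 and 3 hours and was not called later. In the EtOH libraries it had 27.3 and 25.7 normalized CPM at 1 hour, 28.6 and 30.5 at 3 hours, 32.8 and 30.1 at 5 hours, 33.0 and 24.9 at 7 hours, 25.6 and 33.4 at 9 hours, and 35.9 and 25.4 at 11 hours. In the dex libraries it had 12.1 and 10.8 at 1 hour, 16.7 and 17.9 at 3 hours, 28.3 and 24.2 at 5 hours, 23.4 and 26.7 at 7 hours, 22.9 and 28.2 at 9 hours, and 20.2 and 28.7 at 11 hours. The dex libraries were below the EtOH libraries up to 5 hours, and the groups overlapped from 7 hours on. At 1 hour the log2 fold change was -1.20 ± 0.17 (edgeR adjusted p = 0.000488), which left 43.4% of the EtOH level, and at 3 hours it was -0.77 ± 0.14 (adjusted p = 0.000396). It was -0.26 ± 0.14 at 5 hours (adjusted p = 0.200), -0.21 ± 0.13 at 7 hours (adjusted p = 0.282), -0.17 ± 0.17 at 9 hours (adjusted p = 0.571) and -0.30 ± 0.22 at 11 hours (adjusted p = 0.558), none of them called. Between 1 and 5 hours the dex effect changed by 0.94 ± 0.27 (adjusted p = 0.0210) and between 1 and 11 hours by 0.88 ± 0.27 (adjusted p = 0.0501). The later values leaned on single libraries, since *JUN* was called lower at 7 hours without EtOH replicate 2, at 9 hours without EtOH replicate 1 and at 11 hours without dex replicate 2 (log2 fold changes of -0.40, -0.35 and -0.59).

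*JUNB* (ENSG00000171223.5, chromosome 19, 12791496 to 12793315, plus strand), which can restrain JUN-driven transcription, rose from 3 hours on. Its locus lies inside that of *HOOK2* on the opposite strand. The EtOH libraries had 42.8 and 45.5 normalized CPM at 1 hour, 39.5 and 33.5 at 3 hours, 38.4 and 27.3 at 5 hours, 36.2 and 28.3 at 7 hours, 39.2 and 45.8 at 9 hours, and 43.2 and 36.8 at 11 hours. The dex libraries had 34.2 and 44.8 at 1 hour, 62.2 and 84.2 at 3 hours, 66.0 and 87.96 at 5 hours, 51.0 and 46.3 at 7 hours, 53.9 and 56.5 at 9 hours, and 70.1 and 93.8 at 11 hours. From 3 hours on every dex library exceeded both EtOH libraries. The log2 fold change was -0.18 ± 0.15 at 1 hour (not called), 1.01 ± 0.14 at 3 hours (edgeR adjusted p = 9.00e-06), 1.24 ± 0.16 at 5 hours (adjusted p = 2.33e-05), 0.61 ± 0.12 at 7 hours (adjusted p = 0.000112), 0.40 ± 0.13 at 9 hours (adjusted p = 0.0619) and 1.05 ± 0.17 at 11 hours (adjusted p = 0.00197). The dex effect was larger at 3 hours than at 1 hour by 1.18 ± 0.27 (adjusted p = 0.0158). Its lower values at 7 and 9 hours were not set apart, with a change of -0.64 ± 0.28 from 5 to 7 hours (adjusted p = 0.997) and of 0.65 ± 0.27 from 9 to 11 hours (adjusted p = 0.276). The call at 9 hours ended without either dex library (0.43 and 0.36), with DESeq2 (adjusted p = 0.181) and when scaled by library totals alone (adjusted p = 0.133), and that at 7 hours ended without dex replicate 1 (adjusted p = 0.103).

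*JUND* (ENSG00000130522.5, chromosome 19, 18279760 to 18281622, minus strand), the JUN gene that resting cells keep expressed, fell from 3 hours on. Its EtOH libraries had 15.7 and 14.4 normalized CPM at 1 hour, 11.1 and 15.8 at 3 hours, 17.0 and 12.9 at 5 hours, 13.7 and 15.5 at 7 hours, 12.3 and 19.3 at 9 hours, and 17.2 and 17.8 at 11 hours. With dex the libraries had 15.2 and 18.9 at 1 hour, 8.29 and 8.64 at 3 hours, 11.3 and 8.58 at 5 hours, 7.80 and 8.004 at 7 hours, 8.34 and 7.16 at 9 hours, and 7.35 in both at 11 hours. The groups overlapped at 1 hour, and each dex library was below both EtOH libraries afterwards. The log2 fold change was 0.16 ± 0.18 at 1 hour (not called), -0.68 ± 0.20 at 3 hours (edgeR adjusted p = 0.0240), -0.58 ± 0.20 at 5 hours (adjusted p = 0.0276), -0.88 ± 0.18 at 7 hours (adjusted p = 0.000209), -1.02 ± 0.24 at 9 hours (adjusted p = 0.0103) and -1.23 ± 0.21 at 11 hours (adjusted p = 0.00220). Between 1 and 11 hours the dex effect changed by -1.42 ± 0.29 (adjusted p = 0.00203). The call ended without EtOH replicate 2 at 3 hours (-0.39), without dex replicate 2 or EtOH replicate 1 at 5 hours (-0.39 and -0.38) and without dex replicate 2 at 9 hours (-0.90). DESeq2 gave an adjusted p of 0.159 at 3 hours and 0.167 at 5 hours.

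*BATF3* (ENSG00000123685.8, chromosome 1, 212686418 to 212699985, minus strand), best known from dendritic cells, had 10 to 44 counts in a library. At 3 hours the EtOH libraries had 1.10 and 2.21 normalized CPM and the dex libraries 3.54 and 4.22, a log2 fold change of 1.19 ± 0.35 (edgeR adjusted p = 0.0251). That call ended without EtOH replicate 1 (0.81), without dex replicate 2 (1.05) and with DESeq2 (adjusted p = 0.207). No other time point was called, and the estimates lay on both sides of 0, with 0.63 ± 0.37 at 7 hours and -0.63 ± 0.30 at 9 hours. In the EtOH cells *BATF3* was itself higher at 9 hours (3.70 and 4.15 normalized CPM) than at 7 hours (1.99 and 1.57), by a log2 difference of 1.14 ± 0.34 (edgeR adjusted p = 0.0482). The overall test of its EtOH time course did not pass (edgeR adjusted p = 0.168), and the adjustment does not cover the choice of this pair of times.

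*MAFF* (ENSG00000185022.11, chromosome 22, 38200767 to 38216511, plus strand), the small MAF gene that many stresses induce, had 2 to 22 counts in a library and was not called at any time point. Its largest log2 fold changes were 0.82 ± 0.43 at 3 hours (edgeR adjusted p = 0.272) and 0.79 ± 0.44 at 11 hours (adjusted p = 0.408). The dex libraries stood above the EtOH libraries at these 2 times, with 1.88 and 1.92 against 0.769 and 1.32 normalized CPM at 3 hours, and 2.05 and 1.81 against 1.34 and 0.929 at 11 hours. *MAFF* overlaps *PLA2G6* on the opposite strand.

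*MAFK* (ENSG00000198517.9, chromosome 7, 1530714 to 1543043, plus strand), the other small MAF gene, fell at all 6 time points. The EtOH libraries had 48.4 and 52.7 normalized CPM at 1 hour, 36.9 and 41.7 at 3 hours, 48.3 and 38.2 at 5 hours, 43.5 and 40.5 at 7 hours, 48.1 and 48.2 at 9 hours, and 44.3 and 46.9 at 11 hours. The dex libraries had 27.4 and 38.4 at 1 hour, 17.4 and 18.6 at 3 hours, 19.6 and 25.6 at 5 hours, 17.9 and 21.8 at 7 hours, 17.8 and 16.5 at 9 hours, and 13.4 and 18.2 at 11 hours. No dex library reached the lowest EtOH library of its time point. The log2 fold change was -0.64 ± 0.15 at 1 hour (edgeR adjusted p = 0.0599), -1.13 ± 0.14 at 3 hours (adjusted p = 1.08e-06), -0.93 ± 0.14 at 5 hours (adjusted p = 2.77e-06), -1.09 ± 0.12 at 7 hours (adjusted p = 7.57e-09), -1.48 ± 0.14 at 9 hours (adjusted p = 8.37e-06) and -1.51 ± 0.19 at 11 hours (adjusted p = 0.000224). At 11 hours 35.1% of the EtOH level was left. Between 1 and 11 hours the dex effect changed by -0.89 ± 0.23 (adjusted p = 0.0155). Its call at 1 hour ended without dex replicate 1 (-0.41) and without either EtOH library (-0.70 and -0.58), and with DESeq2 the adjusted p was 0.1204. The most counted *MAFK* transcript alone was not called at 1 hour (edgeR adjusted p = 0.102). The 3′ end of *MAFK* overlaps *TMEM184A* on the opposite strand.

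**Figure D2:**
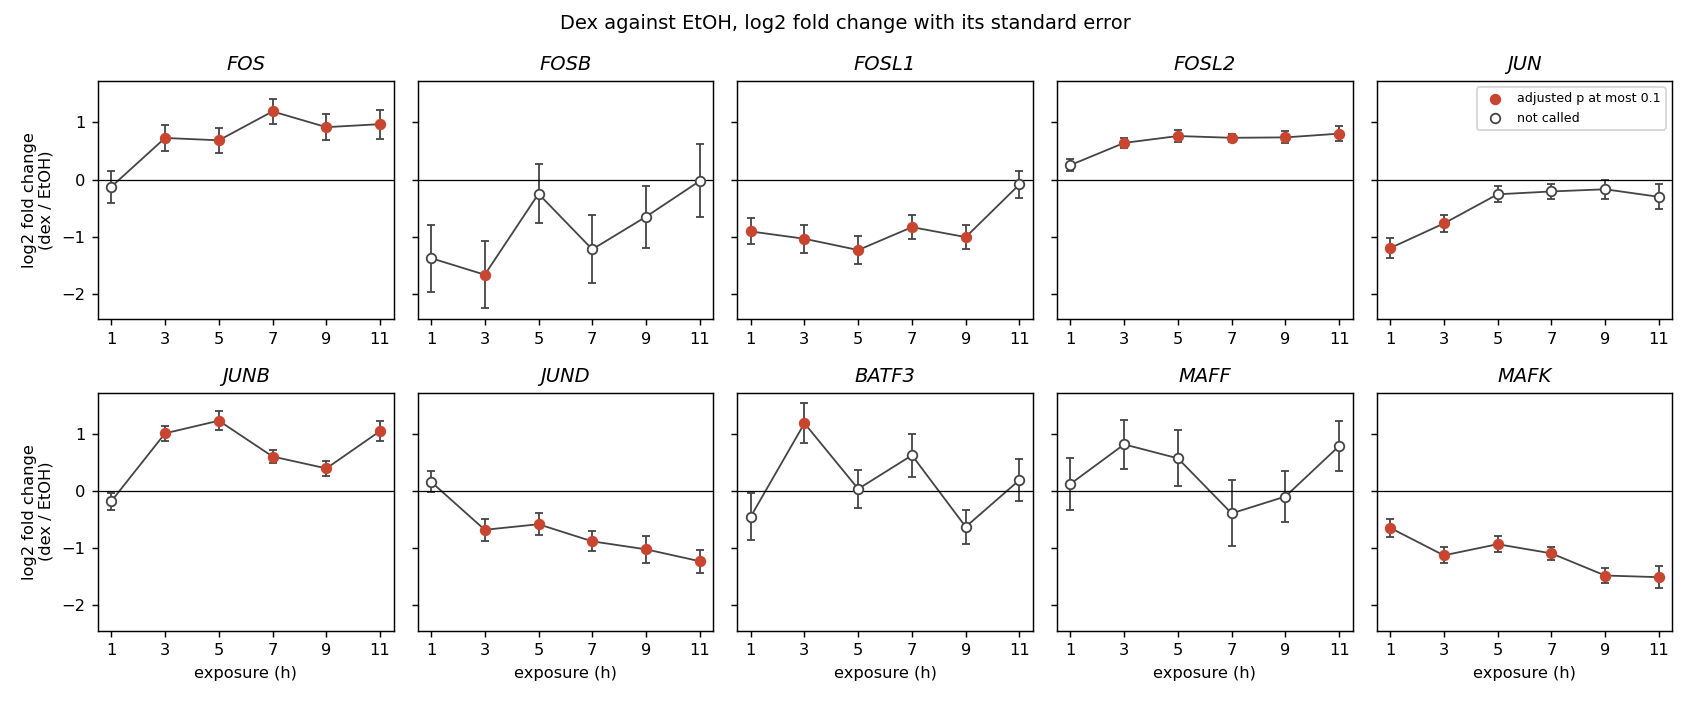
Log2 fold change of dex against EtOH for the 10 AP-1 genes at each time point, with bars of 1 standard error and filled points where the edgeR adjusted p was at most 0.1. *FOSL2* and *JUNB* lie above 0 from 3 hours on, *MAFK* lies below 0 throughout and *JUN* moves from -1.20 at 1 hour towards 0.

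Whether the dex effect itself differed between the 6 time points was tested in 1 edgeR fit over 24 libraries, where 15.4% of all genes passed. Of the members 7 passed, *JUNB* (adjusted p = 0.00797), *JUND* (0.0137), *FOSL2* (0.0184), *JUN* (0.0405), *MAFK* (0.0463), *BATF3* (0.0920) and *FOSL1* (0.0951). *FOS* (0.156), *FOSB* (0.648) and *MAFF* (0.667) did not, although the *FOS* effect at 11 hours exceeded that at 1 hour by 1.08 ± 0.36 (adjusted p = 0.0861). Without 1 of the libraries at 1 hour or dex replicate 2 at 9 hours, the number of members fell to 3 or 4.

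The make-up of the AP-1 transcript pool was described per length, as the share of each gene in the summed TPM of the 10 genes. With EtOH, *FOSL2* held between 26.7% and 32.4% of the pool (mean of the 2 libraries at each time), and with dex between 38.9% and 46.0%. *JUNB* held 18.8% to 23.1% with EtOH and 23.3% to 34.9% with dex. The share of *MAFK* was 16.6% to 19.97% with EtOH, while with dex it was 13.9% at 1 hour and 4.84% at 11 hours. *JUND* held 8.04% to 10.5% with EtOH, and with dex 11.0% at 1 hour and 3.25% at 11 hours. *JUN* with dex held 3.51% at 1 hour, 6.68% at 9 hours and 5.34% at 11 hours, beside 7.14%, 7.91% and 8.48% with EtOH. The summed TPM was 161 to 198 in the EtOH libraries and 159 to 244 in the dex libraries. Both dex libraries were below the EtOH libraries at 1 hour (159 and 173 against 191 and 198) and above them at 3, 5, 7 and 11 hours, with 215 and 244 against 193 and 187 at 11 hours, and the groups overlapped at 9 hours. These are shares of RNA, and protein was not measured.

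**Figure D3:**
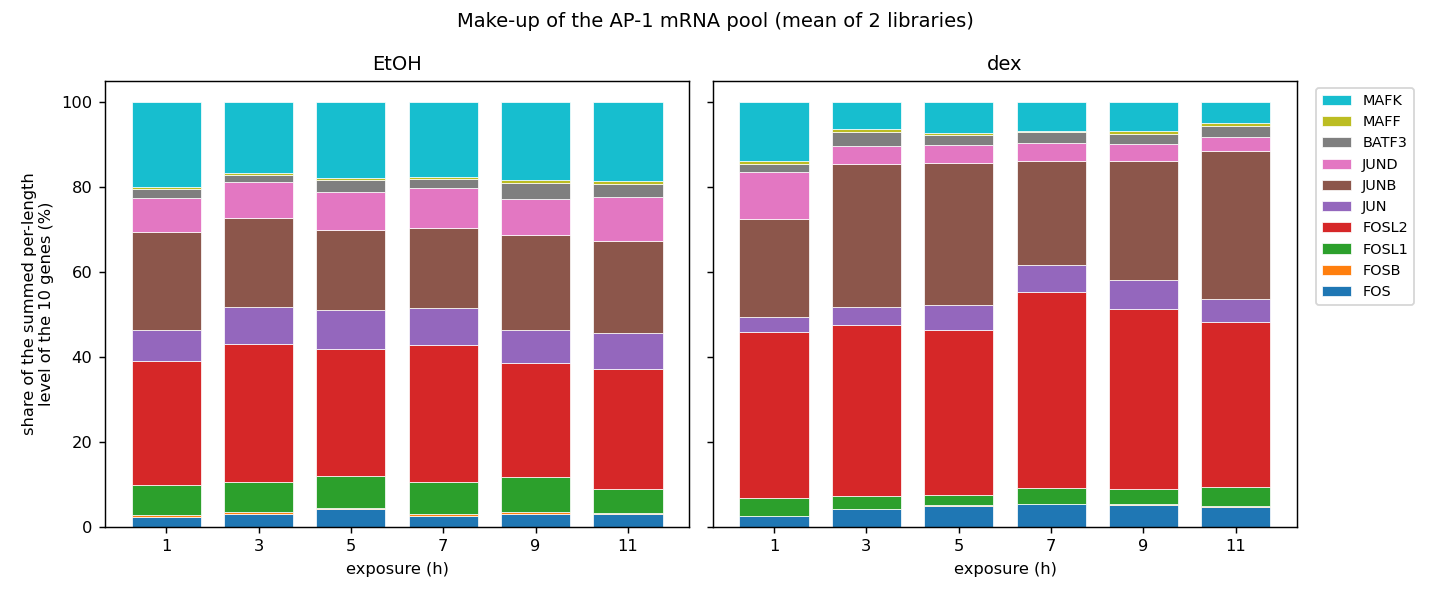
Share of each of the 10 AP-1 genes in their summed TPM (per length, percent), as stacked bars starting at 0 for EtOH and dex at each time point, each bar the mean of 2 libraries. *FOSL2* and *JUNB* together take more of every dex bar than of the EtOH bar of the same time, and *MAFK* takes less.

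Other genes around AP-1 were counted from 3 lists. The lists were also chosen with earlier results of these data known, so these counts are descriptions too. Of 22 textbook AP-1 target genes, 15 had enough counts to be tested. At 1 hour 0 were higher and 6 lower, at 3 hours 3 and 6, at 5 hours 4 and 7, at 7 hours 3 and 6, at 9 hours 4 and 4, and at 11 hours 2 and 5, beside 0.639% and 0.417%, 8.42% and 5.65%, 12.4% and 12.6%, 14.7% and 13.5%, 10.8% and 8.96%, and 5.8% and 3.33% of all genes. DESeq2 called 5, 9, 10, 8, 7 and 7 of the 15 at these times in either direction. Their median log2 fold change stayed between -0.37 at 5 hours and 0.00 at 11 hours. *IL11*, a cytokine of the IL-6 family, had the lowest mean log2 fold change of the list over the 6 time points and went from -1.79 ± 0.17 at 1 hour to -3.53 ± 0.22 at 5 hours (edgeR adjusted p = 2.73e-06 and 1.72e-17). The neutrophil chemokine gene *CXCL8* had -1.80 ± 0.39 at 1 hour and -3.85 ± 0.45 at 3 hours (adjusted p = 0.0268 and 5.48e-07). It was also lower at 5, 7 and 11 hours, with -1.65 ± 0.40, -0.89 ± 0.31 and -2.48 ± 0.45 (edgeR adjusted p = 0.00152, 0.0352 and 0.00413). Only at 9 hours, with -0.38 ± 0.34, was *CXCL8* not called. The monocyte chemokine gene *CCL2* fell by 0.86 at 1 hour and 1.86 at 3 hours on the log2 scale (adjusted p = 0.0246 and 2.86e-08), and *PTGS2*, the inducible cyclooxygenase, fell by 0.77 and 1.69 (adjusted p = 0.0121 and 1.37e-09).
The list did not move one way. *PLAU*, which encodes urokinase, a protease that activates plasminogen, was picked after its values were seen. It was lower at 1 hour, with a log2 fold change of -0.70 ± 0.13 (edgeR adjusted p = 0.00455), and higher at 5 hours, with 0.61 ± 0.11 (adjusted p = 2.02e-05). Many genes of this list are also known targets of other factors.

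Of 18 other bZIP genes whose products can pair with AP-1 proteins, 12 were tested. At 1 hour 0 were called by edgeR or DESeq2, with 3 at an unadjusted p below 0.05 by either tool. At 3, 5, 7, 9 and 11 hours 0, 1, 1, 2 and 1 were higher and 3, 2, 2, 2 and 2 lower. Of all genes, 14.1%, 25%, 28.2%, 19.8% and 9.12% were called in either direction at these times. At 5 and 7 hours the list was thus near the share of all genes. *MAFG*, the third small MAF, fell from 3 hours on, with -0.89 ± 0.12 at 3 hours and -0.79 ± 0.14 at 11 hours (edgeR adjusted p = 4.55e-06 and 0.00376). *NFE2L2*, which encodes NRF2, a partner of small MAFs, fell by 0.88 at 3 hours and 0.72 at 11 hours on the log2 scale (adjusted p = 2.45e-07 and 0.00358). Its relative *NFE2L1* moved the other way, with 0.63 ± 0.10 at 5 hours and 0.46 ± 0.14 at 11 hours (adjusted p = 3.04e-06 and 0.0713). Thus of the small MAF genes, *MAFK* and *MAFG* were lower from 3 hours on and *MAFF* was not called.

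Among 18 kinases, ternary complex factors and ubiquitin ligase genes that act on AP-1, 17 were tested. At 1 hour 0 were called by edgeR or DESeq2, and 0 had an unadjusted p below 0.05. At 3, 5, 7, 9 and 11 hours 0, 2, 6, 5 and 0 were higher and 2, 1, 1, 0 and 1 lower. Of all genes, 8.42%, 12.4%, 14.7%, 10.8% and 5.8% were higher and 5.65%, 12.6%, 13.5%, 8.96% and 3.33% lower. DESeq2 called 0, 2, 4, 1 and 0 of the list in either direction at these times. *MAP2K2*, a kinase of the ERK cascade, had 0.65 ± 0.11 at 5 hours and 0.83 ± 0.17 at 7 hours (edgeR adjusted p = 2.20e-05 and 0.0279), and *RPS6KA3*, a kinase downstream of ERK, had -0.63 ± 0.11 and -0.62 ± 0.08 at the same times (adjusted p = 1.41e-05 and 3.53e-07). *SRF* and its cofactor *ELK3*, which act at the serum response element of *FOS*, were higher at 7 hours, with 0.57 ± 0.16 and 0.41 ± 0.08 (adjusted p = 0.00653 and 0.000108).

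**Figure D4:**
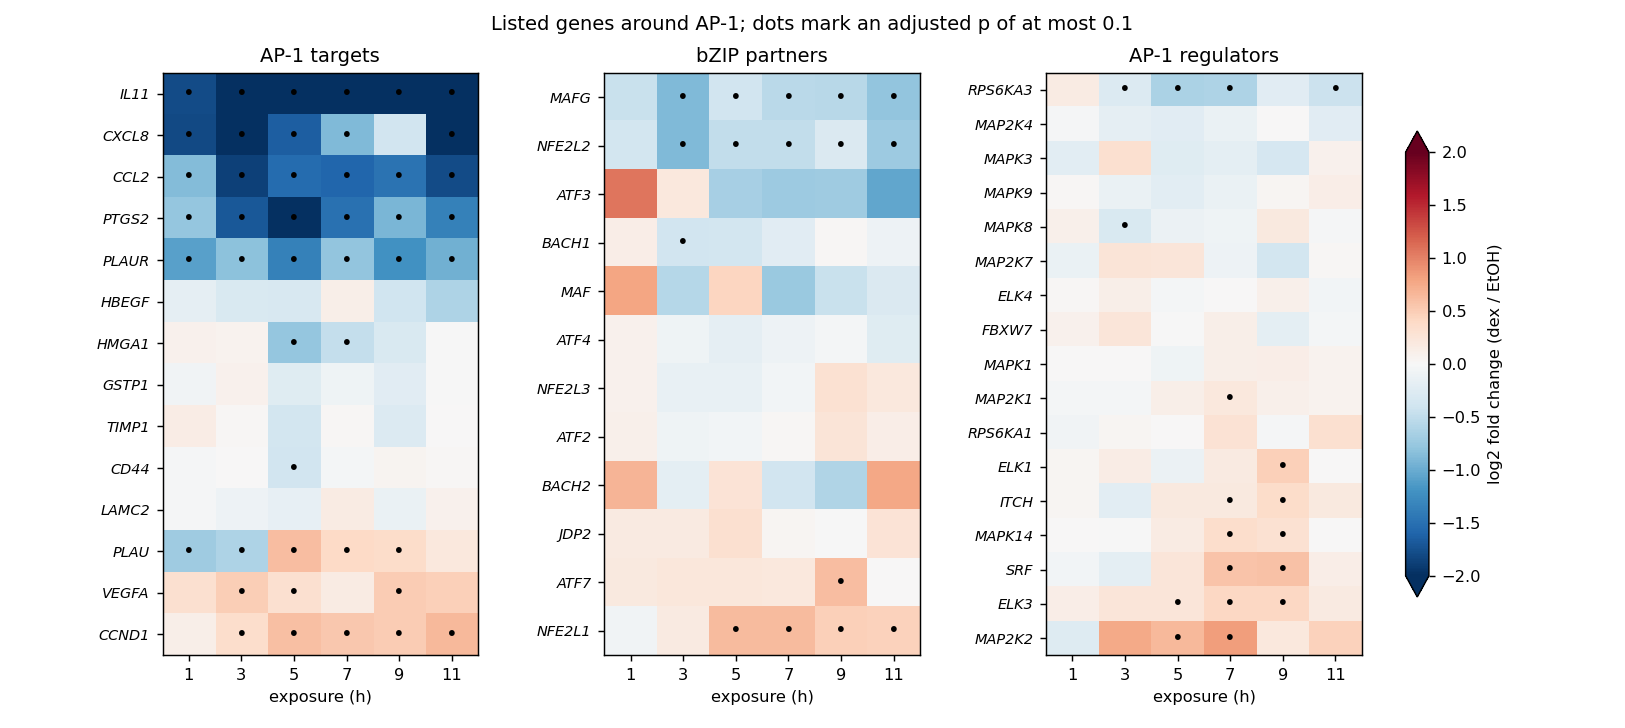
Log2 fold change of dex against EtOH for tested genes of the 3 lists around AP-1 (targets without 1 gene not shown here, 12 bZIP partners, 17 regulators), with time across and genes down, red for higher and blue for lower with dex, and a dot where the edgeR adjusted p was at most 0.1. *IL11* is dark blue from 3 hours on, *PLAU* turns from blue to red at 5 hours, and most regulators are pale.

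For 3 members the most similar time courses were looked up among all tested genes by the Euclidean distance between the 6 log2 fold changes. *MAFK* lay nearest to *BCL2A1* (distance 0.42), *BDKRB1* (0.46) and *ACKR3* (0.48). *FOS* lay nearest to *TSPAN9* (0.31), *ATP10A* (0.33) and *ESYT2* (0.33). *FOSL1* had no neighbour as close, with *AXIN2* at 0.73, *AC103740.2* at 0.74 and *TMCC2* at 0.80. These distances are descriptions over the same 24 libraries.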

How the data were processed

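Libraries were poly-A selected and stranded, and the single-end reads, each 50 bases, were mapped by the authors to GENCODE release 19 transcripts with Bowtie and counted reads per transcript with SAMtools. The deposited values are counts, not divided by library size or length. How reads matching several transcripts were placed, and whether strand was used, is not given in the sources used here. The methods state triplicates, while the labels give 2 replicates. The row for unplaced reads holds 0 counts.

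The 119207 transcripts were joined to genes of GENCODE release 29 (GRCh38) by identifier without version. This matched 110262 transcripts with 94.1% of the counts, 42 of them from the members, and counts were summed per gene. Genes kept by filterByExpr were tested with edgeR 4.0.16 (TMM scaling, robust quasi-likelihood F-test, R 4.3.3), each time point by itself, and calls were made at a Benjamini-Hochberg adjusted p of at most 0.1. Normalized CPM are TMM-scaled. Standard errors are the log2 fold change over the square root of F. For TPM each transcript's counts were divided by its length and summed per gene. The EtOH time course used 12 libraries and the dex-by-time test 24. DESeq2 was version 1.42.0, and figures used matplotlib 3.10.9.

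On simulated data for the 5 hour comparison (15337 genes, 200 changed), edgeR recovered 90% of 2-fold and 100% of 4-fold changes, with 16.3% of 227 calls false, and DESeq2 recovered 74% and 98%, with 4.44% of 180 calls false. The changes were planted only in better counted genes, so these rates do not cover genes as sparse as *FOSB* and *MAFF*. In this simulation the false share with edgeR lay above what the threshold of 0.1 aims at, and that with DESeq2 lay below it. In the data edgeR called 3834 genes at 5 hours, so the false shares do not carry over to those calls. Whether the false share among the real calls is lower or higher is not known from this simulation, and other time points were not simulated.

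All members are named. From each list, up to 4 genes called at 2 or more consecutive time points and largest in mean absolute change are named, and likeness gives the 3 nearest genes. The members and lists were chosen with earlier results of these data known. Alternatives were DESeq2, its size factors in edgeR, library totals alone, no filter, at least 10 counts in every library, the replicate number as a block, one fit over 24 libraries, the most counted transcript alone, a threshold of 0.05 and each library left out. Values of 1 listed gene are not reported here.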

Additional observations from a re-analysis of the deposited data

Results flagged for a closer look

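The effect of dex differed between the 6 time points for 7 of the 10 AP-1 genes in a test of the difference itself, made by edgeR in 1 fit over 24 libraries with Benjamini-Hochberg adjustment over 15337 genes, where 15.4% of all genes passed. Leaving out 1 library gave 3 to 7 members. The adjusted p was 0.00797 for *JUNB*, 0.0137 for *JUND*, 0.0184 for *FOSL2*, 0.0405 for *JUN*, 0.0463 for *MAFK*, 0.0920 for *BATF3* and 0.0951 for *FOSL1*. The effect on *JUN* was largest at 1 hour (log2 fold change -1.20), while those on *JUND* and *MAFK* were largest at 11 hours (-1.23 and -1.51). *FOSL1* was lower up to 9 hours and had -0.09 at 11 hours. *JUNB* and *FOSL2* had -0.18 and 0.25 at 1 hour and were higher afterwards.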

How the results depend on the processing

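With 2 libraries a group, calls rest on dispersions shared between genes, and for *FOSB*, *MAFF* and *BATF3* (at most 44 counts in a library) the depth limits what could be seen. Of 35 called member values, 21 kept their call under every left-out library, 14 lost it under at least 1 and 0 changed sign, while 4 uncalled values gained a call. Direction held for every member value compared under DESeq2 (56 with an adjusted p, 9 calls lost), its size factors in edgeR, library totals alone (1 lost), no filter, one fit over 24 libraries (2 lost), at least 10 counts in every library (49 values) and the most counted transcript (48 values, 6 lost). With the replicate number as a block all 60 member values kept direction and call, and 6 rather than 7 members differed over time. Same-numbered libraries correlated in their deviations by 0.157 at 1 hour and 0.111 at 9 hours and by -0.07 to 0.04 at the other times. Between any 2 of the 12 groups such correlations ran from -0.21 to 0.29, and between EtOH groups from -0.10 to 0.13. The values at 1 and 9 hours thus lay within the range of all groups. The sample labels do not say that a number marks a shared batch or day. The block moved the genes called at 1 hour from 162 to 583 and at 9 hours from 3035 to 4388.

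Members called at 1 hour numbered 1 with DESeq2 and 1 at a threshold of 0.05, against 3, and 5 with DESeq2 at 3 hours, against 9. DESeq2 called 1208, 2348, 2464 and 1831 genes at 3, 5, 7 and 9 hours, against 2159, 3834, 4325 and 3035 with edgeR. Without the filter 262 genes were called at 1 hour, and one fit over 24 libraries called 2477 at 11 hours, against 1399. At the stricter threshold of 0.05 the genes called by edgeR were 129, 1617, 3102, 3580, 2200 and 1059 from 1 to 11 hours.

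Leaving out 1 library gave 88 to 691 genes at 1 hour, 1290 to 2257 at 3 hours, 2005 to 4821 at 7 hours, 1056 to 5297 at 9 hours and 720 to 4979 at 11 hours. It gave 1 to 4 members at 1 hour and 3 to 7 at 9 hours (3 without dex replicate 2), 12 to 2036 genes over the EtOH time course against 506, 1650 to 3958 genes and 3 to 7 members for the difference over time. Values that were not called crossed 0 for *BATF3* at 1 hour (-0.93 to 0.0304), 5 hours (-0.14 to 0.28) and 11 hours (-0.20 to 0.51), *FOS* at 1 hour (-0.31 to 0.0643), *FOSB* at 9 hours (-1.24 to 0.0162) and 11 hours (-0.89 to 0.55), *FOSL1* at 11 hours (-0.22 to 0.0572), *JUN* at 7 hours (-0.40 to 0.00504) and 9 hours (-0.35 to 0.0381), *JUNB* at 1 hour (-0.37 to 0.0151), and *MAFF* at 1 hour (-0.50 to 0.45), 7 hours (-2.04 to 0.32) and 9 hours (-0.46 to 0.35). The cause was not tested.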
